A study of Bos taurus with 8 samples.

Results

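Collagen chain genes were taken from arrays of bovine endometrium as every noncontrol probe whose gene name or description gave a symbol made of COL, a number, A and a number. The rule found 35 genes with 112 probes among 43653 noncontrol probes. Of these genes, 9 encode fibrillar chains, 6 encode type IV chains of basement membranes, and 20 encode other chains. COL5A1 and COL5A2, the main type V chains, were not among the genes the rule found and are not analysed here. The same holds for COL14A1, COL23A1, COL26A1 and COL6A5, whose probes carry a locus name or synonym that the rule does not take. COL9A1, COL19A1 and COL20A1 were not found either.

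The biopsies came from 8 cows, each a different animal, and were taken on day 7 after standing estrus from the horn of the uterus ipsilateral to the corpus luteum. On day 1 the horns had each received 25 mL of fluid with methylglyoxal at 0 mM in 4 cows or at 5 mM in 4 cows. Each biopsy was hybridised to its own one-colour array. Breed, age and parity are not given in the sources used here, and the 0 mM cows received the infusion too.

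Collagens are secreted proteins whose chains wind into a triple helix. Every turn of that helix needs glycine, the smallest amino acid, at a fixed spacing. Fibrillar chains (types I, III and V above all) form the rope-like fibrils of the endometrial stroma, type IV chains form the sheet under epithelium and around vessels and muscle cells, and the remaining types bind fibrils, anchor epithelium or form finer networks. Methylglyoxal is a reactive by-product of glycolysis that modifies arginine and lysine residues, and long-lived collagen is a known target. The arrays measured collagen transcripts and not collagen protein or its modification.

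The glycine spacing can be read in some of the probes. A script searched each probe for codons that start with GG (GGN, where N is any base) and follow each other every 9 bases, at least 6 in a row, in the orientation in which the array prints the probe. This pattern was present in 18 of 43653 noncontrol probes, or 0.0412%, and 16 of the 18 were collagen probes, from 14 genes. The 6 sequences below are shown because they lie in the part of the transcript that encodes the helix, and because several of them differed across cows from the brightest probe of the same gene. Capitals mark the GGN codons of the run. Sequences were copied from the deposited array files, 5′ to 3′, and coordinates are those of the files, on build HGSC Btau_3.1. Where the coordinates span more than the 60 bases of a probe, they include sequence that the probe does not hold. Exons and introns were not annotated here.
COL1A1, chr19:37646195-37646474, plus strand: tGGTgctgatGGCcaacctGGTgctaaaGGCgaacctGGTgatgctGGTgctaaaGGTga
COL1A2, chr4:12047111-12047170, plus strand: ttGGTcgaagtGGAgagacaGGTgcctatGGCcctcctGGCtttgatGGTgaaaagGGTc
COL2A1, chr5:35492569-35492870, plus strand: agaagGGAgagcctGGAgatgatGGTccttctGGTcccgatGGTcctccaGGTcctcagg
COL4A1, chr12:82969811-82969870, minus strand: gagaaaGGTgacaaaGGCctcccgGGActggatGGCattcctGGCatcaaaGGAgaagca
COL4A4, chr2:119810143-119810202, minus strand: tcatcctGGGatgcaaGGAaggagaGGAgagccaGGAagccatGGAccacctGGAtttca
COL6A2, chr1:148774362-148774705, plus strand: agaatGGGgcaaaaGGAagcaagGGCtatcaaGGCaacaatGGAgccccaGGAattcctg

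Between 68.3% and 73.2% of the noncontrol probes were well above background on each array, and no spot was saturated. On each array, the 75th percentile of processed signals was 1032 to 1456 intensity units. A level below is the log2 signal of a probe minus the log2 of this percentile on the same array, so that 0 is the 75th percentile. Differences are 5 mM minus 0 mM, values given with an SD are group means over 4 cows, and per-cow values run from replicate 1 to replicate 4. A gene is read through its brightest probe among those with values on all 8 arrays, and levels of different probes are not set against each other. The number of arrays limits the precision.

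The arrays differed in their tissue markers, which touches many of the results. The mean of 14 epithelial genes, each relative to its own mean over the 8 cows, was -3.30 for 5 mM replicate 1 and between 0.28 and 0.93 for the other 7 cows. EPCAM, an epithelial adhesion molecule, was -1.26 in that cow and 4.33 to 4.83 in the others. The summed signal of the 14 epithelial genes, in units of the 75th percentile, was 59.3 to 84.6 in the 0 mM group and 5.05 to 70.9 in the 5 mM group. The mean of 13 smooth muscle genes of 14 listed was 1.21 for 0 mM replicate 1, 2.37 for 5 mM replicate 1 and 1.42 for 5 mM replicate 3, against -1.51 to -0.75 in the other 5 cows. Their summed signal was 46.2 to 317 in the 0 mM group and 67.6 to 677 in the 5 mM group. The mean of 12 stromal fibroblast genes was -0.55 to 0.01 in the 0 mM group and -0.24 to 0.86 in the 5 mM group. In bulk tissue, fewer cells of a type and less RNA per cell cannot be told apart.

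The comparison of 5 mM with 0 mM asked whether an infusion of methylglyoxal on day 1 went with other transcript levels on day 7. Of the 35 genes, 31 had a brightest probe that passed the filter (a signal well above background on 4 or more of the arrays) and were tested. None of these 31 differed between the groups beyond the spread between cows. COL17A1, which was too dim to be tested, had no overlap between groups and is described with the anchoring chains. None of the 31 passed an adjusted p of 0.05 with limma, and the background was 0% of 31108 probes, the lowest adjusted p over all of them being 0.913. At an unadjusted p under 0.05 the count was 0 of 31 collagen genes, beside 1.91% of the 13121 genes tested, and the lowest unadjusted p among them was 0.167, for COL4A3. The 2 groups overlapped in all 31 tested genes, and groups without overlap made up 1.62% of all genes tested. The estimate was higher in the 5 mM group for 15 genes and lower for 16 (19 and 12 with normexp background correction, 8 and 23 with array weights, and 8 and 23 without 5 mM replicate 1), with a median of -0.0033 on the log2 scale, beside 48.3% lower and a median of 0.0106 over all genes. These intervals were wide for some genes and narrow for others, and a p that misses the threshold does not show that levels were equal.

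**Figure D1:**
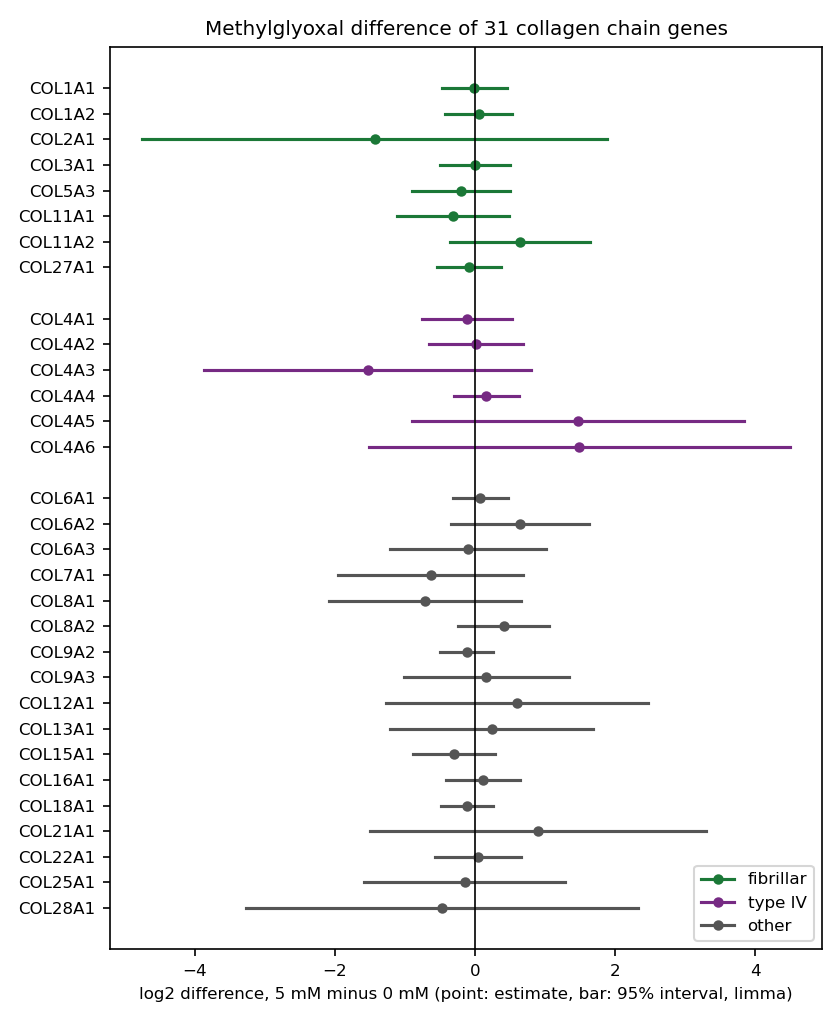
Log2 difference between the 5 mM and 0 mM groups (horizontal axis) for the 31 tested collagen chain genes, with the 95% interval of the limma fit, coloured by class. All 31 intervals cross 0, and the widest belong to COL2A1, COL4A3, COL4A5, COL4A6, COL21A1 and COL28A1.

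Among the fibrillar chains, the brightest probes of the type I and type III genes had SDs of 0.25 to 0.28 over the 8 cows, while the other 4 COL1A1 probes had SDs of 0.38 to 0.80. Of 8 tested genes, 2 had a higher and 6 a lower estimate in the 5 mM group, with a median difference of -0.05 (0.01 with a median shift). Within slides 1, 2 and 3, which held 2, 3 and 3 of the arrays, this median was 0.16, -0.09 and -0.20.

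COL1A1, which encodes the alpha 1 chain of type I collagen, was 3.71, 3.75, 3.63 and 3.61 in the 0 mM cows and 4.22, 3.52, 3.56 and 3.36 in the 5 mM cows. The highest and the lowest cow were both in the 5 mM group. The difference was -0.01 ± 0.20 (SE), with a 95% interval of -0.47 to 0.45. With a median shift, normexp background correction or slide as a block the sign of this difference turned, as it did for COL3A1. Without 5 mM replicate 1 the COL1A1 difference was -0.20 and the groups did not overlap, as in 3.01% of all genes in that fit.

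COL1A2, which encodes the alpha 2 chain of type I collagen, was 5.23, 5.26, 5.54 and 5.40 in the 0 mM group and 5.91, 5.39, 4.98 and 5.35 in the 5 mM group. Its difference was 0.05 ± 0.21 (SE), with an interval of -0.43 to 0.53. COL3A1, the chain of type III collagen that shares fibrils with type I, was 4.78, 5.11, 5.10 and 5.26 in the 0 mM group and 5.42, 5.27, 4.54 and 5.00 in the 5 mM group. For COL3A1 the difference was 0.00 ± 0.22 (SE), with an interval of -0.51 to 0.50. In all of these, cow 5 mM replicate 1 was the highest and the groups overlapped. That cow was the highest in 16 of the 31 tested collagen genes, or 51.6%, beside 33.2% of 13081 genes.

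COL11A2, COL2A1 and COL11A1 had the lowest unadjusted p among the fibrillar chains. COL11A2, a minor chain that helps set fibril width, was -3.65, -4.11, -4.81 and -4.44 in the 0 mM group and -3.52, -4.07, -2.48 and -4.38 in the 5 mM group. Its difference of 0.64 ± 0.43 (SE) had an unadjusted p of 0.180 and an adjusted p of 0.913 in limma. The high value of 1 cow, 5 mM replicate 3, stood above the rest. COL11A1 was -1.24, -2.08, -2.13 and -1.68 in the 0 mM group and -2.89, -2.35, -1.62 and -1.54 in the 5 mM group, a difference of -0.32 ± 0.35 (SE).

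COL2A1, best known as the main collagen of cartilage, varied more than any other collagen gene tested, with an SD of 2.30 over the 8 cows. Its brightest probe was -0.42, -1.00, 2.15 and 2.11 in the 0 mM group and -4.74, 1.10, -0.80 and 1.54 in the 5 mM group. The lowest value belonged to 5 mM replicate 1, the cow with the low epithelial markers and the highest smooth muscle mean. This cow was the lowest in 4 of the 31 collagen genes, or 12.9%, beside 30.2% of 13081 genes. The difference was -1.43 ± 1.44 (SE) with all cows and -0.10 without that cow. The part of the epithelial or smooth muscle markers in this was not tested.

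COL5A3 and COL27A1 completed the fibrillar chains tested, with SDs over the 8 cows of 0.44 and 0.25 and differences of -0.20 ± 0.30 (SE) and -0.08 ± 0.20 (SE). COL24A1 was not tested, because its brightest probe was well above background on 2 of the 4 0 mM arrays and on none of the 5 mM arrays.

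The type IV genes fell into sets that differed in how they varied across cows. Of the 6 genes, 4 had a higher and 2 a lower estimate in the 5 mM group, and the median difference was 0.09. The median was 0.83, -0.03 and -0.37 within slides 1, 2 and 3. In RefSeq's annotation of ARS-UCD2.0, type IV genes neighbour each other in pairs, COL4A1 with COL4A2, COL4A3 with COL4A4 and COL4A5 with COL4A6.

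COL4A1 and COL4A2 encode the chains of the common basement membrane network. COL4A1 was 1.21, 1.50, 2.40 and 2.19 in the 0 mM group and 1.80, 1.90, 1.50 and 1.61 in the 5 mM group, a difference of -0.12 ± 0.28 (SE). A brighter COL4A1 probe, with values left out on 3 arrays as outlier spots, had a difference of 0.23 ± 0.32 (SE), of the other sign. COL4A2 was 0.97, 1.09, 1.80 and 1.64 in the 0 mM group and 2.04, 1.44, 1.08 and 1.01 in the 5 mM group, a difference of 0.02 ± 0.29 (SE). In both genes 0 mM replicates 3 and 4 were higher than 0 mM replicates 1 and 2.

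COL4A3 and COL4A4 encode chains that join COL4A5 in the specialised basement membranes of kidney and lung. COL4A3 was -2.98, -1.51, -0.89 and -0.30 in the 0 mM group and -5.74, -2.38, -2.72 and -0.97 in the 5 mM group. Its difference of -1.53 ± 1.01 (SE) had a p of 0.167 in limma, and without 5 mM replicate 1 it was -0.60. With slide as a block it was -1.74 ± 0.49 (SE), with an unadjusted p of 0.011 and an adjusted p of 0.841 in limma, in a fit where 3.14% of all genes had an unadjusted p under 0.05. Within slides 1, 2 and 3 the difference was -2.76, -1.18 and -1.55. COL4A3 was lowest in 5 mM replicate 1, the cow with low epithelial markers and the highest smooth muscle mean. Its 3 lowest cows were the 3 with the highest smooth muscle markers. The part of either marker set in this was not tested. COL4A4 was -1.47, -1.01, -1.78 and -1.14 in the 0 mM group and -0.98, -1.19, -1.18 and -1.40 in the 5 mM group, with an SD of 0.27 over all cows against 1.72 for COL4A3.

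COL4A5 and COL4A6 encode the chains found together in the basement membranes of smooth muscle, among other sites. COL4A5 was 2.77, 0.10, 0.77 and 0.51 in the 0 mM group and 5.18, 0.82, 2.98 and 1.02 in the 5 mM group. COL4A6 was 2.48, -0.81, -0.07 and -0.74 in the 0 mM group and 5.04, -0.53, 2.36 and -0.06 in the 5 mM group. In the brightest probe of both genes the 3 highest cows were 5 mM replicate 1, 5 mM replicate 3 and 0 mM replicate 1. These cows also had the highest smooth muscle marker means. The cows with low markers lay between 0.10 and 1.02 for COL4A5 and between -0.81 and -0.06 for COL4A6. A second COL4A5 probe had the same 3 cows highest, with a difference of 1.53. In a second COL4A6 probe, at -5.02, -5.68, -4.56 and -5.17 against -1.99, -6.62, -5.31 and -5.73, the order was another. There 5 mM replicate 3 was below 0 mM replicates 1, 3 and 4, and the difference was 0.20.

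The group differences were 1.46 ± 1.03 (SE) for COL4A5 and 1.49 ± 1.30 (SE) for COL4A6, with unadjusted p of 0.192 and 0.285 in limma. The cows with high values were 2 of 4 in the 5 mM group and 1 of 4 in the 0 mM group. Without 5 mM replicate 1 the differences were 0.57 and 0.38. Within slides 1, 2 and 3 they were 2.41, 0.38 and 1.49 for COL4A5 and 2.56, -0.09 and 1.89 for COL4A6. The part of smooth muscle in the group difference was not tested.

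**Figure D2:**
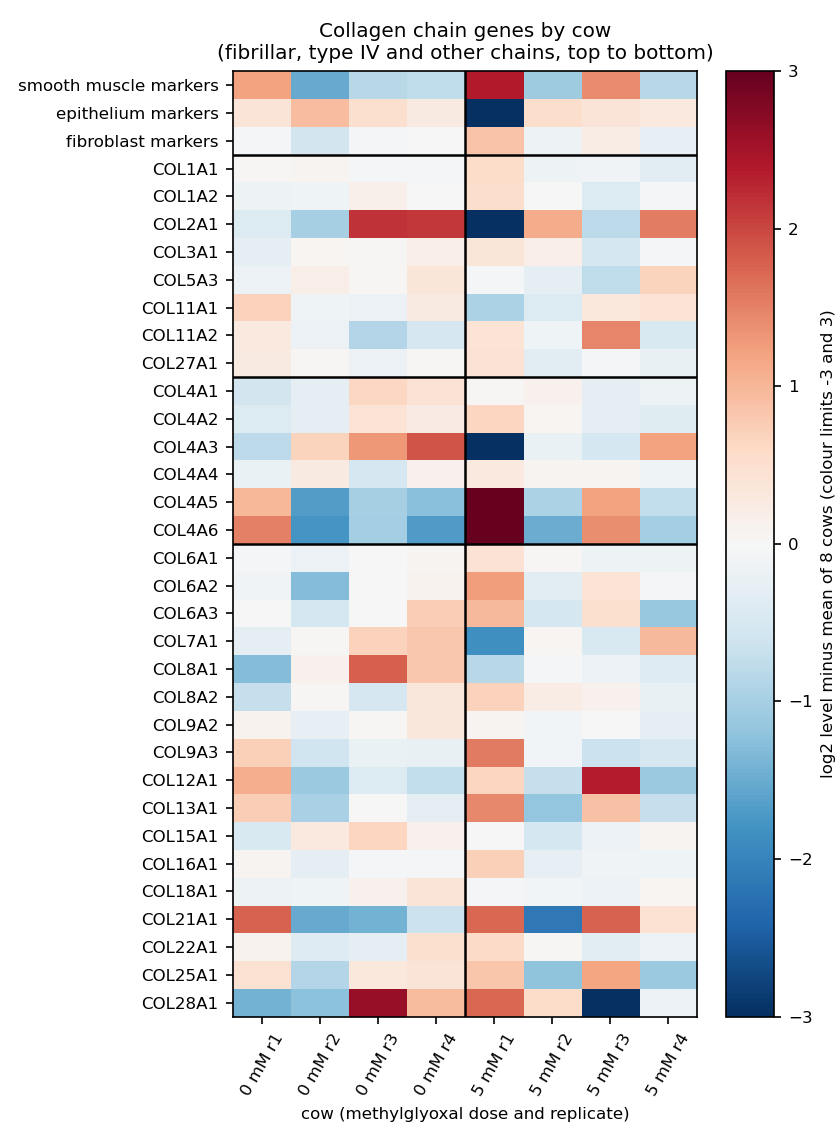
Log2 level of each tested collagen chain gene minus its mean over the 8 cows (colour, limits -3 and 3), with cows in columns and genes in rows by class, under the means of 3 marker lists. COL4A5 and COL4A6 are red in the 3 cows that are red for smooth muscle markers. COL2A1, COL4A3 and COL7A1 are dark blue or blue in 5 mM replicate 1. That cow is dark blue for epithelium markers and red for smooth muscle markers.

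The other chains were also spread around 0. Of 17 tested genes, 9 had a higher and 8 a lower estimate in the 5 mM group, with a median of 0.05 (-0.05 with quantile normalization). Within slides 1, 2 and 3 this median was 0.46, -0.10 and -0.35.

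Type VI collagen forms beaded filaments near cells. COL6A1 was 5.70, 5.55, 5.71 and 5.81 in the 0 mM group and 6.16, 5.76, 5.57 and 5.58 in the 5 mM group, with a difference of 0.08 ± 0.17 (SE). COL6A2 was 0.52, -0.67, 0.62 and 0.72 in the 0 mM group and 1.87, 0.30, 1.04 and 0.55 in the 5 mM group. Its difference was 0.64 ± 0.43 (SE), with a p of 0.170 in limma, and 0 mM replicate 2 lay apart below the other 3 cows of its group. COL6A3 was 2.32, 1.81, 2.34 and 3.06 in the 0 mM group and 3.30, 1.81, 2.82 and 1.19 in the 5 mM group, with a difference of -0.11 ± 0.48 (SE). The highest and lowest cows of COL6A3 were both in the 5 mM group.

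COL15A1 and COL18A1 encode the multiplexins, basement membrane proteins with glycosaminoglycan chains. COL15A1 was -0.66, 0.08, 0.42 and -0.08 in the 0 mM group and -0.21, -0.75, -0.38 and -0.13 in the 5 mM group, a difference of -0.30 ± 0.25 (SE). The other tested COL15A1 probe had a difference of 0.31, of the other sign. COL18A1, the source of endostatin, was 5.99, 6.03, 6.28 and 6.53 in the 0 mM group and 6.11, 6.06, 5.98 and 6.21 in the 5 mM group. Its difference was -0.12 ± 0.16 (SE), and its SD of 0.19 over the 8 cows was the lowest of the 31 genes. Another COL18A1 probe, at 3.80, 3.80, 4.18 and 4.43 against 3.62, 3.78, 3.51 and 3.79, had no overlap between groups, with an unadjusted p of 0.072. It was 1 of 2 among the 89 tested collagen probes without overlap, both lower in the 5 mM group. The other was a COL7A1 probe, given with that gene. Of all 31108 tested probes, 479 had no overlap in either direction, and 0.524% had none and were lower with 5 mM.

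Type VIII chains form hexagonal networks under endothelium. COL8A1 was -2.00, -0.57, 1.09 and 0.11 in the 0 mM group and -1.54, -0.75, -0.87 and -1.08 in the 5 mM group, a difference of -0.72 ± 0.59 (SE). Without 0 mM replicate 1 the groups did not overlap and the unadjusted p was 0.0165, in a fit where 5.52% of all genes did not overlap and 2.85% had an unadjusted p under 0.05. COL8A2 was -6.08, -5.35, -5.89 and -5.06 in the 0 mM group and -4.71, -5.18, -5.25 and -5.61 in the 5 mM group, a difference of 0.41 ± 0.28 (SE). The estimates of these partner chains had opposite signs.

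COL12A1, a chain that decorates type I fibrils, was 3.07, 0.85, 1.56 and 1.23 in the 0 mM group and 2.63, 1.28, 4.34 and 0.85 in the 5 mM group. Its high values were in the same 3 cows as those of COL4A5, and its difference was 0.60 ± 0.81 (SE). Over the 31 tested genes, 7 had their 3 highest values in the 3 cows with the highest smooth muscle markers, namely COL4A5, COL4A6, COL11A2, COL12A1, COL13A1, COL21A1 and COL25A1. This was 22.6% of the collagen genes, beside 10.1% of 13081 genes with values in all cows. The opposite order, with the 3 lowest values in those cows, was found for COL4A3 and COL7A1, 6.45% of the collagen genes beside 13.1% of all genes. The pattern was picked after its values were seen, and these shares describe these 8 cows. Among the 7 genes, COL21A1 and COL25A1 were dim, with probes well above background on only 4 and 5 arrays. The filter asked for 4. In the cows with lower muscle markers COL21A1 lay between -8.52 and -5.93, partly at background, against -4.67 to -4.61 in the 3 cows. For COL25A1 the lowest of the 3 cows, at -6.11, was close to the next cow, at -6.20. The count of 7 is less secure for these genes.

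COL7A1 and COL17A1 encode proteins that fix epithelium to its base. COL7A1, the chain of anchoring fibrils, was 3.60, 3.90, 4.55 and 4.68 in the 0 mM group and 2.02, 3.93, 3.40 and 4.85 in the 5 mM group. The difference was -0.63 ± 0.57 (SE), and it was -0.12 without 5 mM replicate 1. That cow had low epithelial markers and the highest smooth muscle mean, and the part of either was not tested. A second COL7A1 probe, not the brightest, was 3.46, 3.09, 3.99 and 3.38 in the 0 mM group and 1.72, 3.05 and 1.86 in 3 of the 5 mM cows, the value of 5 mM replicate 4 having been left out as an outlier spot. This probe was 1 of 89 collagen probes at an unadjusted p under 0.05, with a difference of -1.27 and a p of 0.0114 in limma, beside 1.91% of all probes. In the missing cow the brightest probe had its highest value, so the difference and the lack of overlap at the second probe rest on a set without that cow.

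COL17A1, a transmembrane collagen of hemidesmosomes, was too dim to be tested. Its brightest probe was well above background on 3 of the 4 0 mM arrays and on none of the 5 mM arrays. Levels were -6.44, -5.97, -5.40 and -5.76 in the 0 mM group and -7.16, -6.92, -6.84 and -7.43 in the 5 mM group, and the groups did not overlap. With the lowest signal well above background put in for the dim group, the processed signals gave a level 1.48-fold lower in the 5 mM group. That signal is no upper limit for a probe that is not well above background, so the value is not a bound. In the limma fit without a filter its unadjusted p was 0.0014 and its adjusted p 0.883. There 2.44% of 43590 probes had an unadjusted p under 0.05, and 1.50% had no overlap between groups in either direction. With normexp background correction the difference was 0.06, against -1.19 with the processed signals, and the groups overlapped. The other COL17A1 probe was not well above background on any array. COL6A6 and COL10A1 were not tested either.

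**Figure D3:**
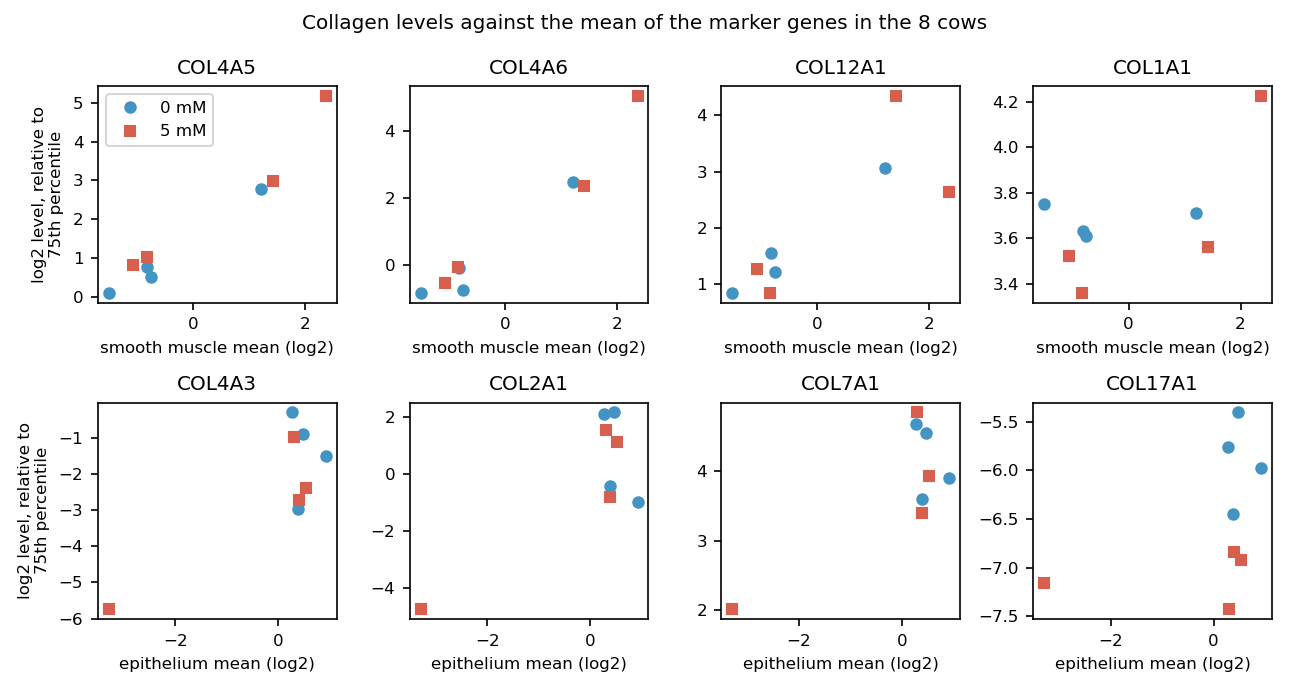
Log2 level of 8 collagen chain genes (vertical axes, relative to the 75th percentile of each array) against the mean of the smooth muscle genes (upper row) or the epithelium genes (lower row) in each of the 8 cows, circles for 0 mM and squares for 5 mM. The upper row shows 3 cows with high smooth muscle means apart from the other 5, and the lower row shows 5 mM replicate 1 at an epithelium mean of -3.30, apart from the other 7, while COL17A1 in all 5 mM cows is not well above background.

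The remaining tested chains were COL9A2, COL9A3, COL13A1, COL16A1, COL21A1, COL22A1, COL25A1 and COL28A1. Their unadjusted p in limma lay between 0.413 and 0.866. COL28A1 was among the 3 most variable collagen genes, at -4.48, -4.29, -0.45 and -2.12 in the 0 mM group and -1.36, -2.52, -6.10 and -3.24 in the 5 mM group. Its highest cows were 0 mM replicate 3 and 5 mM replicate 1, and its lowest was 5 mM replicate 3.

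Spread between cows was wider for collagen genes than for genes in general when read as a median. The SD over the 8 cows had a median of 0.526 over the 31 collagen genes and 0.348 over 13121 genes. Of the 31, 7 lay above the 90th percentile of all genes, which was an SD of 1.11. The most variable were COL2A1, COL4A6 and COL28A1, with SDs of 2.30, 2.11 and 1.84, while COL1A1, COL1A2, COL3A1, COL6A1 and COL18A1 had SDs of 0.25, 0.27, 0.28, 0.20 and 0.19. No test was made of this difference.

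Probes of 1 gene did not always rank the cows alike. Of 23 genes with more than 1 tested probe, 11 had probes with differences of both signs, and in 11 the brightest probe had the lowest SD. The COL1A1 helix probe was -3.32, -3.23, -2.21 and -2.35 in the 0 mM group and -1.69, -2.67, -3.01 and -2.76 in the 5 mM group. There 0 mM replicates 3 and 4 were above 0 mM replicates 1 and 2, which the brightest COL1A1 probe did not show.

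For COL2A1 the brightest probe and the helix probe gave opposite pictures of 5 mM replicate 1. The remaining tested COL2A1 probe was also lowest in that cow, at -5.67. Its coordinates, chr5:35498022-35498072, overlap those of the brightest probe, chr5:35498003-35498062. The helix probe of COL2A1 was -4.74, -4.88, -3.45 and -3.87 in the 0 mM group and -3.77, -4.41, -5.02 and -4.30 in the 5 mM group, so that 5 mM replicate 1 was the highest 5 mM cow, whereas it was the lowest cow by the brightest probe. For COL4A4 the helix probe was -7.53, -5.91, -4.67 and -4.51 in the 0 mM group and -7.14, -5.76, -5.52 and -5.62 in the 5 mM group. Its lowest cows were 0 mM replicate 1 and 5 mM replicate 1, which were also the lowest cows of COL4A3, while the brightest COL4A4 probe gave 5 mM replicate 1 as its highest cow. The brightest COL4A4 probe was matched to another transcript record than the helix probe, and the difference between them was not resolved here. In COL3A1, 1 of 10 tested probes had an SD of 2.38 over the cows, against 0.17 to 0.55 for the other 9.

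**Figure D4:**
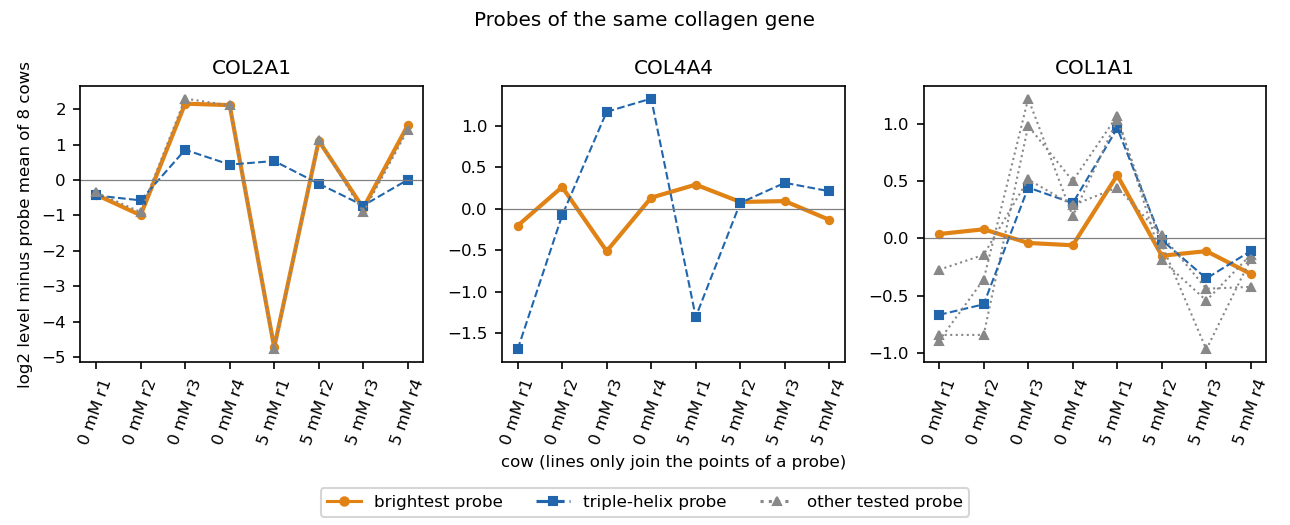
Log2 level of each tested probe of COL2A1, COL4A4 and COL1A1 minus the probe's mean over the 8 cows (vertical axis), by cow; the brightest probe is solid, the triple-helix probe dashed and other probes dotted. In COL2A1 the brightest probe falls far below its mean in 5 mM replicate 1 and the helix probe does not; in COL4A4 the helix probe falls below its mean in 0 mM replicate 1 and 5 mM replicate 1; in COL1A1 the brightest probe is the flattest apart from its peak in 5 mM replicate 1.

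Most of the tested helix probes had the same 3 cows highest, though not in the same order. In 6 of the 9 tested helix probes, those of COL1A1, COL1A2 (both), COL2A1, COL4A1 and COL6A2, the 3 highest cows were 0 mM replicates 3 and 4 and 5 mM replicate 1. The same 3 cows were highest in 18 of 85 collagen probes with values in all cows, or 21.2%, beside 660 of 30839 tested probes, or 2.14%. Among the brightest probes of the 31 genes the count was 3, or 9.68%, for COL1A2, COL4A2 and COL28A1, beside 2.25% of 13081 genes. These cows come from both groups. The pattern was noticed in these values and then counted, the helix probes share repeated sequence, and probes of 1 gene share a transcript, so the counts are a description.

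Collagen genes were set against each other over the 8 cows in 8 pairs, 6 of chains that form 1 molecule and 2 of chains from different molecules (COL1A1 with COL3A1 and with COL4A1), with exact two-sided permutation tests. COL4A1 and COL4A2 had Pearson's r of 0.76 (exact permutation p = 0.030, adjusted p = 0.184 over the 8 pairs) and Spearman's rho of 0.79 (exact permutation p = 0.028, adjusted p = 0.223), and r was 0.65 without the 2 cows farthest from the median. With 1 cow left out at a time the r of this pair was 0.70 to 0.97. The highest was without 5 mM replicate 1, with an adjusted exact permutation p of 0.0079. COL1A1 and COL1A2 had r of 0.68 (exact permutation p = 0.092, adjusted p = 0.184) and rho of 0.26 (exact permutation p = 0.54, adjusted p = 0.72). Without the 2 farthest cows that r was 0.0066, so the relation rests on those cows. COL6A1 had r of 0.73 with COL6A2 and 0.66 with COL6A3, which became -0.45 and 0.37 without the 2 farthest cows. The other 4 pairs, COL4A3 with COL4A4, COL8A1 with COL8A2, COL1A1 with COL3A1 and COL1A1 with COL4A1, had r of -0.41, -0.08, 0.44 and -0.03. For COL4A4 this used the brightest probe only. The helix probe of COL4A4, whose lowest cows were also those of COL4A3, was not used, so the sign for this pair may depend on the probe. With all 8 cows, none of the 8 pairs passed an adjusted exact permutation p of 0.05. No r was computed for COL4A5 with COL4A6, whose cows fell into separate clusters, and a slide held too few cows for an r within it.

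Genes that make and bind collagen were read from lists of the pathway. None of the 54 tested genes of the 5 lists passed an adjusted p of 0.05 with limma. Of 21 genes for chain modification and folding, 18 were tested, with 11 higher and 7 lower in the 5 mM group and a median difference of 0.04. SERPINH1, the collagen chaperone of the endoplasmic reticulum, was 3.71 ± 0.49 (SD, n = 4) with 0 mM and 3.94 ± 0.64 (SD, n = 4) with 5 mM. P4HA1, a subunit of the prolyl hydroxylase that stabilises the helix, was -0.62 ± 0.34 (SD, n = 4) and -0.49 ± 0.61 (SD, n = 4). The 3 lowest unadjusted p of this list were those of P3H2, PLOD3 and PLOD2, hydroxylases of proline and lysine, at 0.154, 0.219 and 0.246.

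Of 11 genes for propeptide cleavage and fibril assembly, 5 were tested, 1 higher and 4 lower, with a median of -0.31. MEP1B, a metalloprotease, had a difference of -1.57 ± 1.15 (SE) and was -6.28 in 5 mM replicate 1 against -2.88 to 0.43 in the other cows. PCOLCE, which speeds the removal of the carboxyl propeptide, differed by -0.31 ± 0.34 (SE), and SPARC, a collagen-binding matricellular protein, by 0.19 ± 0.24 (SE).

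All 6 genes for crosslinking were tested, 4 higher and 2 lower, with a median of 0.03. LOX, which oxidises lysines so that collagen chains can be joined, was -1.37, -1.89, -0.45 and -0.51 in the 0 mM group and 0.54, -1.39, -0.93 and -1.67 in the 5 mM group, a difference of 0.19 ± 0.53 (SE). The 3 highest cows for LOX, LOXL1 and LOXL2 were again 0 mM replicates 3 and 4 and 5 mM replicate 1. The same cows were highest in 3 of the 18 modification genes and 2 of the 5 for cleavage. They were so in 0 of 10 genes for receptors and uptake and 0 of 15 for other basement membrane proteins. Over all genes the count was 294 of 13081, or 2.25%. TGM2 and LOXL4, which also crosslink matrix proteins, differed by 0.20 ± 0.18 (SE) and -0.34 ± 0.53 (SE).

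Of 12 genes for collagen receptors and uptake, 10 were tested, 4 higher and 6 lower, with a median of -0.06. DDR1, a receptor tyrosine kinase of epithelium that binds collagen, was 1.44, 1.47, 1.23 and 1.32 in the 0 mM group and 0.11, 1.21, 1.19 and 0.98 in the 5 mM group. The groups did not overlap, as in 1.62% of all genes in either direction and 0.533% in this direction. The difference was -0.49 ± 0.26 (SE), with an unadjusted p of 0.090 and an adjusted p of 0.913 in limma, and its lowest cow was 5 mM replicate 1. DDR2, the related receptor of stromal cells, was -0.87 ± 0.34 (SD, n = 4) and -0.55 ± 0.60 (SD, n = 4). ITGA10 and ITGA1, collagen-binding integrin subunits, differed by -0.39 ± 0.23 (SE) and 0.56 ± 0.39 (SE).

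Of 16 genes for other basement membrane proteins, 15 were tested, 6 higher and 9 lower, with a median of -0.12. LAMB3, a laminin chain of epithelial basement membranes, was 0.19, 0.24, 0.19 and -0.01 in the 0 mM group and -0.65, 0.05, -0.75 and -0.14 in the 5 mM group. Its difference of -0.53 ± 0.21 (SE) had an unadjusted p of 0.0345 and an adjusted p of 0.913 in limma, and it was the only one of the 54 pathway genes under 0.05, beside 1.91% of all genes. LAMC3, another laminin chain, was -7.69 in 5 mM replicate 1, its lowest cow, and its difference was -1.91 ± 1.30 (SE). The part of the low epithelial or high smooth muscle markers of that cow in this value was not tested.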

How the data were processed

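RNA from 8 endometrial biopsies was measured on one-colour Agilent arrays of design 023647, which per the file headers places probes on HGSC Btau_3.1. Deposited intensity values are processed signals on a linear scale, background-subtracted by Agilent Feature Extraction (10.5.1.1 per the submitters' processing notes, while the arrays' headers give 11.5.1.1). The deposited series table holds log2 values. They correlated across probes with the scanner values, scaled by the 75th percentile with each probe's median removed, at r of at least 0.9995. Its column medians lay between -0.023 and 0.13, and it served only as an alternative.

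Control spots and outlier spots were left out, spots of a probe were averaged, and the log2 75th percentile of each array was subtracted. Probes well above background on at least 4 arrays (31108) were fitted with limma 3.58.1 in R 4.3.3 (lmFit and eBayes), with Benjamini-Hochberg adjustment over all of them and a threshold of 0.05. The code was tested on simulated data. The brightest probe of a gene was taken among those with all 8 values where there was one, a choice made after seeing the data. Of the 112 collagen probes, 108 were found by gene name and 4 by description. Symbols of other genes were updated with a RefSeq table of ARS-UCD2.0. The slide of each array came from the file headers, with replicate 1 of both groups on slide 1, 0 mM replicates 2 and 3 with 5 mM replicate 2 on slide 2, and 0 mM replicate 4 with 5 mM replicates 3 and 4 on slide 3.

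The members and lists were chosen with earlier results of these data known. Values per cow are given for the main stromal, basement membrane and anchoring chains, the 3 lowest p of each class and the 3 highest SDs. From each pathway list the 3 lowest p are named, with SERPINH1, LOX, P4HA1 and DDR2. The result of 1 gene named by this rule is not reported here. Results were recomputed without each cow, with a replicate block, with slide as a block, within slides, with array weights, with trended and robust eBayes, on the deposited table, with a gene's probes averaged, with the filter dropped or set to all 8 arrays, with normexp (offset 50), with a median shift and after quantile normalization. Taking the brightest probe with missing values allowed was added after seeing the data.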

Additional observations from a re-analysis of the deposited data

Results flagged for a closer look

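Of 62 sets of 4 cows (31 genes in each group), 3 held a cow far from the other 3, by Dixon's test at 95%, and chance marks about 1 set in 20. COL6A2 was -0.67 in 0 mM replicate 2, while the other 0 mM cows lay between 0.52 and 0.72. COL16A1, a fibril-associated chain, was 5.46 in 5 mM replicate 1, while the other 5 mM cows lay between 4.52 and 4.64. COL25A1, a transmembrane chain, was -7.45 in 0 mM replicate 2, while the other 0 mM cows lay between -6.26 and -6.11. This COL25A1 value was not well above background, as the lowest signal that was so on that array was -6.95.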

How the results depend on the processing

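No collagen gene, and no probe in any fit that was run, passed the adjusted threshold. At an unadjusted p under 0.05 there were 0 collagen genes in the reported fit (595 probes of 31108, and 1.91% of genes), 1 with slide as a block (COL4A3; 3.14% of genes), 2 within slide 2 (COL4A3 and COL15A1; 2.11%), 1 within slide 3 (COL8A1; 2.04%), 3 with the replicate block (COL4A3, COL4A5 and COL4A6; 4.18%; adjusted p of at least 0.791) and 0 to 1 without 1 cow (1.11% to 5.06%). Whether the replicate numbers pair cows was not settled. Deviations from the group means correlated at 0.40, 0.36, -0.30 and 0.31 for numbers 1 to 4. Both arrays of numbers 1, 2 and 4 were on 1 slide, and cows of unlike number were not compared, so these values cannot decide it. Genes without overlap numbered 0 to 3 without 1 cow, with COL4A5, COL8A1 and COL15A1 when 0 mM replicate 1 was left out (5.52% of all genes) and COL1A1 when 5 mM replicate 1 was left out (3.01%). Median differences moved by more than the SD between cows within slide 1 (0.83 for type IV, 0.46 for other chains) and within slide 3 (-0.37 and -0.35). As no difference was called, a turned sign is no reversal: signs turned for 7 genes with the mean over probes, 7 with array weights, 4 with normexp, 3 with quantile normalization (COL1A2, COL4A2 and COL6A1), 3 with slide as a block, 2 with a median shift and 1 (COL4A1) with missing values allowed in the brightest probe. Of 617 gene values outside single slides, 615 moved by less than the SD between cows, and 2 by more (COL9A2 to 0.12 with normexp, COL22A1 to -0.49 with the mean over probes). The r of COL8A1 with COL8A2 was 0.14 with residuals from the group means, 0.0022 with quantile normalization and 0.57 with normexp, and -0.64 to 0.44 without 1 cow. The r of COL1A1 with COL1A2 was -0.019 with quantile normalization and -0.085 to 0.75 without 1 cow. That of COL1A1 with COL3A1 was -0.11 with quantile normalization and -0.025 to 0.55 without 1 cow. That of COL1A1 with COL4A1 was 0.15 with normexp and -0.12 to 0.021 without 1 cow, and that of COL4A1 with COL4A2 was 0.70 to 0.97. The cause of these changes was not tested.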
